A study of Mus musculus with 4 samples.

Results

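The long noncoding RNAs examined here were 9 genes of the mouse transcriptome, picked by symbol: Neat1, Malat1, Gas5, Snhg1, Snhg12, Pvt1, Kcnq1ot1, H19 and Meg3, out of 55335 genes in the deposited table. CT26, a mouse colon carcinoma cell line, gave 4 RNA-seq libraries, and levels are in FPKM, the number of fragments for each kilobase of a transcript relative to all mapped fragments. Per the labels, CT26_102 and CT26_CTL carry FOSL2-WT and received PBS, whereas CT26_102_R and CT26_CTL_R are FOSL2-KO and received chemoradiotherapy. Genotype and treatment therefore change together with the suffix R and cannot be told apart. The labels give no time, agents or dose for the treatment, and do not say what distinguishes the stem CT26_102 from the stem CT26_CTL, what R stands for, or whether lines were clones. Each title is 1 library. Every comparison thus set 2 libraries against 2, and values listed in fours follow the order CT26_102, CT26_102_R, CT26_CTL, CT26_CTL_R.

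Long noncoding RNAs are transcripts that act without being translated. Neat1 is the scaffold of the paraspeckle, a nuclear body that holds RNA-binding proteins, and Malat1 is an abundant RNA of the nuclear speckle, where splicing factors gather. Gas5, named for its accumulation in growth-arrested cells, and the host genes Snhg1 and Snhg12 carry small nucleolar RNAs (snoRNAs, guides for the modification of ribosomal RNA) in their introns, while the spliced host RNA is often degraded by nonsense-mediated decay. Pvt1 lies beside the oncogene Myc, and Neat1 and Pvt1 are both known as genes that p53 can induce. Kcnq1ot1, H19 and Meg3 are imprinted RNAs, transcribed from 1 parental allele.

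Of the 9 genes, 6 were at 1 FPKM or more in 2 or more libraries and were tested: Neat1, Malat1, Gas5, Snhg1, Snhg12 and Pvt1. Among them Neat1, Snhg12 and Pvt1 rose in the libraries with suffix R, 0 fell and 3 did not pass, in a fit where 7.57% of 11955 tested genes were called higher and 5.32% lower. Neat1 alone differed between stems, lower in CT26_102, where 9.44% of all tested genes were called lower, 12.5% higher and 21.9% either way. With upper-quartile rescaling the split of all calls between groups, 905 higher and 636 lower, became 937 and 1011. With the length trend removed the split between stems, 1494 and 1129, became 1048 and 1200. The calls come from limma on log2(FPKM + 1) with stem and suffix both as terms (the two-factor fit), at an adjusted p under 0.05. In the fit with the tested division alone, 0 members passed in either comparison, where 0.284% of genes passed between stems (0.0502% as lower in CT26_102) and 0.00836% between groups. There, 0 members between stems and 2 between groups had an unadjusted limma p under 0.05. Without the filter on low values 0 members passed as well. The 3 RNAs that were not tested were Kcnq1ot1, under 0.1 FPKM throughout, H19, at 0.0308 FPKM in CT26_CTL and listed at 0 in the other libraries, and Meg3, listed at 0 in every library.

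The libraries held an estimated 21.66 to 26.55 M reads. Cdkn1a, which encodes the p53-induced cell cycle inhibitor p21, was at 92.2, 359, 94.6 and 377 FPKM. Fosl2, the gene named in the genotype labels, was at 9.35, 16.0, 12.7 and 19.2 FPKM, higher in the libraries labelled FOSL2-KO (log2 difference 0.64 ± 0.13 SE, limma adjusted p = 0.0444), which goes against that label. The series' design text speaks of KD cells, not of a knockout, and the labels do not say how FOSL2 was changed or which part of the gene was targeted, so the transcript level does not settle the genotype. Of 8 epithelial markers, Epcam and Cdx2 were listed at 0 in every library. Cdh1 reached at most 0.0202, Krt19 0.142 and Vil1 0.151 FPKM. The keratin genes Krt18 and Krt20 were at 34.7 to 76.5 and at 24.5 to 36.8 FPKM. Krt8 was at 3.82, 2.74, 0.461 and 0.652 FPKM, higher in CT26_102 (limma adjusted p = 0.0142). All 6 mesenchymal markers were above 1 FPKM in every library, with Vim at 503 to 782 FPKM, and the growth protocol describes the cells as mesenchymal. The summed level of 9 leukocyte marker names was 23.9, 118, 41.9 and 90.9 FPKM, nearly all of it Cd68 and Lyz2, with Cd3e listed at 0 and Ptprc at 0.088 FPKM or less. Summed fibroblast markers were at 180, 87.5, 113 and 80.9 FPKM and endothelial ones at 0.563 FPKM or less. Most of the fibroblast sum was Col1a1 and Col1a2. Pdgfrb was at 5.02 to 9.73 and Pdgfra at 0.722 to 1.57 FPKM, Dcn reached at most 0.142 FPKM and Lum was listed at 0 in every library. The erythroid sum was 1.23 FPKM or less. The part of these markers in the results below was not tested.

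The snoRNA host genes belong to a class whose transcription starts at a run of pyrimidines that opens with C, the signature of growth-regulated transcripts that also mark ribosomal protein messages. The RefSeq table (GRCm38.p6) held start sites for 6 of the 9 genes, and the 50 bases around a start (from 20 before it) are shown for the 3 hosts and, for contrast, for Malat1. Capitals mark the longest C-led pyrimidine run that begins within 10 bases of the start. Gas5 has a pair of RefSeq starts, of which the downstream one is shown, chr1:161035146-161035195 on the plus strand. Snhg1 is shown at chr19:8723467-8723516 and Snhg12 at chr4:132308658-132308707, both on the plus strand. Malat1 is shown at chr19:5802643-5802692 on the minus strand.
Gas5: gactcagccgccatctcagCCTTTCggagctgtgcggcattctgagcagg
Snhg1: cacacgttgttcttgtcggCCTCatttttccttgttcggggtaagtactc
Snhg12: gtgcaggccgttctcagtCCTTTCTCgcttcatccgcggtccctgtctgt
Malat1: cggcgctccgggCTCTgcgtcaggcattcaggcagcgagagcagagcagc
The run was 6 bases long at the downstream start of Gas5 but 3 at its upstream start, and 8 in Snhg12. It was 4 in Snhg1 and in Malat1, so its length did not set Snhg1 apart from the gene shown for contrast. Runs of at least 5 bases were present at 30.7% of all starts. A run of at least 6 bases was present at 19.2% of 32851 RefSeq starts, and of at least 7 at 12.2%. In each promoter, from 250 bases before the start to 50 after it and searched on both strands, the AP-1 element TGANTCA bound by Fos and Jun proteins was found in none of the 6 genes, against 7.81% of all promoters. The cyclic AMP response element TGACGTCA lay 46 to 39 bases before the downstream Gas5 start and 57 to 50 bases before the upstream start of Meg3, and was present in 1.79% of all promoters. A p53 half-site was found at none of the starts of these 6 genes, against 8.36% of all promoters. With shares this low and 6 genes, finding none does not show that either element is scarcer at these genes. Neat1, Pvt1 and H19 had no entry in the table.

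**Figure D1:**
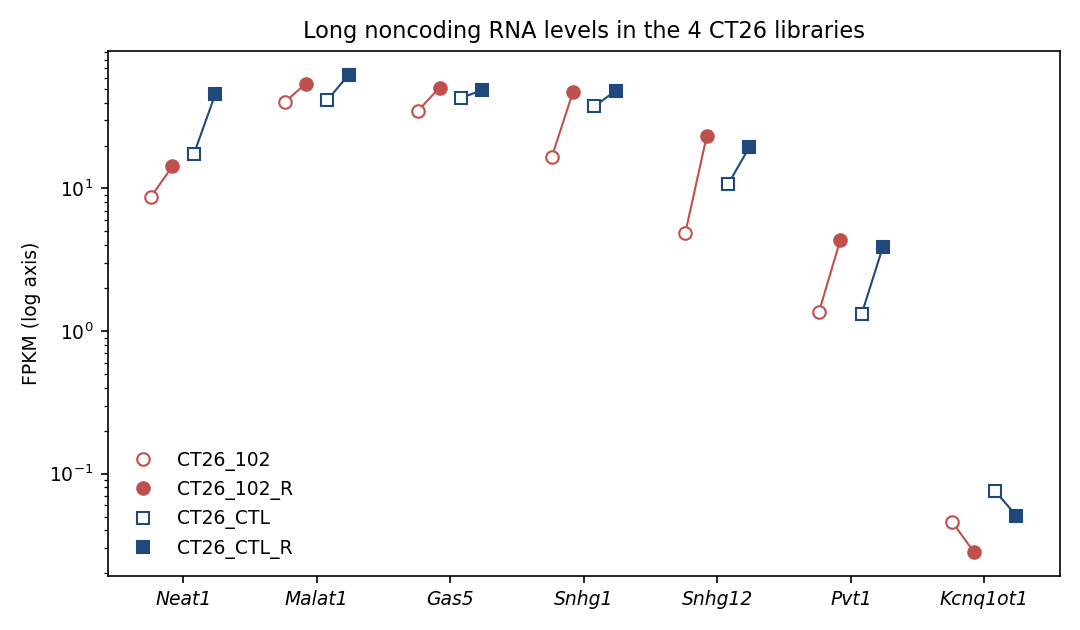
FPKM (log axis) of the 7 long noncoding RNAs above 0 in all 4 libraries, 1 point per library, with lines joining the library without and with suffix R of the same stem. Neat1 was lowest in CT26_102 at 8.77 FPKM and highest in CT26_CTL_R at 45.7 FPKM, Pvt1 went from 1.35 to 4.33 and from 1.31 to 3.91 FPKM, and Kcnq1ot1 lay under 0.1 FPKM.

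Neat1 differed between both stems and suffixes. Neat1 (ENSMUSG00000092274, GRCm38 chromosome 19, 5824708 to 5845478, minus strand, a lincRNA with annotated transcripts of 711 to 20771 bases) was at 8.77, 14.3, 17.4 and 45.7 FPKM. Both CT26_102 libraries lay below both CT26_CTL libraries, and within each stem the library with suffix R was higher. Its level in CT26_102 was 0.503 times that in CT26_CTL without suffix R and 0.312 times with it, so the distance between stems was wider with R. The stem difference on the log2(FPKM + 1) scale was -1.26 ± 0.20 (SE, limma adjusted p = 0.0192), and 1.3% of tested genes had a lower one. The group difference was 0.99 ± 0.20 (SE, limma adjusted p = 0.0433), from 1.63 times in CT26_102 and 2.62 times in CT26_CTL. With the other term left out, the adjusted p was 0.316 between stems and 0.607 between groups. The group call also ended with median-of-ratios rescaling (adjusted p = 0.0516) and without the variance trend (0.0513).

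FPKM of the whole Neat1 gene does not separate the short from the long isoform. The table holds a nested record, Gm27505 (ENSMUSG00000098974, chromosome 19, 5844638 to 5844747, same strand), a 110-base segment near the 5' end that both isoforms would contain. It was at 63.7, 81.8, 86.9 and 170 FPKM, the same order of libraries as Neat1 itself. The stem difference of Gm27505 was -0.74 ± 0.17 on the log2(FPKM + 1) scale (SE, limma adjusted p = 0.0409), while its group difference of 0.66 did not pass (adjusted p = 0.0647). Relative to the whole gene, the level per length of this segment was 7.26, 5.74, 4.98 and 3.72 times that of Neat1, highest in CT26_102 and lowest in CT26_CTL_R. How reads were shared between the nested record and the gene is not given in the sources used here, and this segment was chosen after its values were seen, as were Zbtb37, Zfas1, Trp53cor1, Airn and Tug1 below.

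Malat1 (ENSMUSG00000092341, chromosome 19, 5795690 to 5802672, minus strand, lincRNA), the neighbour of Neat1, was at 40.3, 54.4, 41.7 and 62.9 FPKM. Both libraries with suffix R were above both without it, by 1.35 and 1.51 times, and the stems overlapped. The group difference of 0.50 ± 0.12 (SE) did not pass (limma adjusted p = 0.0556), except with the trend of gene length removed, where it was 0.57 (adjusted p = 0.0436). The stem difference of -0.13 ± 0.12 (SE) did not pass either (limma adjusted p = 0.469). Malat1 was among the more abundant RNAs, with 8.52% of tested genes at a higher mean level on the log2(FPKM + 1) scale.

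The genes that encode proteins of the nuclear bodies these RNAs occupy were mostly not called. Those called between groups were mainly lower with suffix R. All values are RNA levels, and protein was not measured. Of 27 genes of paraspeckle proteins, all tested, 1 rose and 9 fell between groups while 17 did not pass. The list median was -0.26 against 0.00 over all tested genes. Over all tested genes 7.57% were called higher with suffix R and 5.32% lower. With the tested division alone, 1 of the 11955 tested genes passed as lower, so the count of falls depends on the two-factor fit. Sfpq, an essential partner of Neat1 in the paraspeckle, fell from 61.6 to 32.4 and from 42.9 to 30.8 FPKM (log2 difference -0.69, limma adjusted p = 0.0498). Taf15, an RNA-binding protein of the FET family, was at 52.7, 37.8, 70.3 and 35.9 FPKM (adjusted p = 0.0495), and Zc3h6 at 2.51, 1.07, 2.15 and 0.511 FPKM (adjusted p = 0.0369). Between stems 4 of the 27 were higher in CT26_102 and 0 lower, where 12.5% of all tested genes were higher, and the widest were Tardbp, which encodes the RNA-binding protein TDP-43, at 23.8, 18.7, 14.5 and 10.6 FPKM, Matr3 at 22.4, 24.2, 13.8 and 13.8 FPKM and Aqr at 7.08, 6.37, 4.30 and 3.73 FPKM. Genes of other core proteins were picked after their values were seen. Nono, at 61.3, 39.0, 72.5 and 53.6 FPKM, and Pspc1, at 4.05, 2.42, 5.32 and 2.87 FPKM, did not pass between stems (limma adjusted p = 0.101 and 0.241). Between groups Pspc1 was among the 9 that fell (log2 difference -0.63, limma adjusted p = 0.0496), while Nono did not pass (-0.53, adjusted p = 0.0522).

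Of 25 genes of nuclear speckle proteins, 0 rose and 3 fell with suffix R (median -0.18). Those 3 were the splicing factor genes Srsf5 at 60.0, 33.1, 47.2 and 28.5, Srsf1 at 18.1, 10.4, 12.3 and 7.08, and Srsf2 at 92.8, 49.9, 66.8 and 47.5 FPKM. Over all tested genes 7.57% rose and 5.32% fell with suffix R. Between stems, 7 of the 25 were higher in CT26_102 and 0 lower (median 0.27, against 0.05 over all tested genes). Of all tested genes 12.5% were higher there and 9.44% lower. Pnn, which encodes the speckle protein pinin, was at 42.4, 28.4, 15.0 and 12.1 FPKM, the splicing cofactor Son at 17, 11.6, 7.74 and 6.60, and Acin1 at 16.5, 18.2, 9.86 and 7.85 FPKM.

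Of the 3 snoRNA hosts among the members, Snhg12 was the one that passed, between groups. Snhg12 (ENSMUSG00000086290, chromosome 4, 132308623 to 132311024, plus strand, lincRNA) was at 4.87, 23.2, 10.7 and 19.5 FPKM. Both libraries with suffix R were above both without it, and CT26_102 was the lowest library and CT26_102_R the highest. Snhg12 rose by 4.76 times in CT26_102 and was 1.82 times as high in CT26_CTL, a group difference of 1.43 ± 0.30 on the log2(FPKM + 1) scale (SE, limma adjusted p = 0.0468). That call ended with a pseudocount of 0.1 (adjusted p = 0.0554), without the variance trend (0.0558) and with the tested division alone (0.443). The stem difference was -1.0 without suffix R and 0.23 with it, and the average of -0.38 did not pass (adjusted p = 0.39).

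Snhg1 (ENSMUSG00000108414, chromosome 19, 8723475 to 8726443, plus strand, processed transcript) was at 16.6, 47.8, 37.7 and 48.6 FPKM. CT26_102 stood well below the other libraries, and both libraries with suffix R were nearly level. The stem difference was -1.14 without suffix R and -0.02 with it. Neither the stem average of -0.58 ± 0.27 nor the group difference of 0.91 ± 0.27 passed (SE, limma adjusted p = 0.181 and 0.0841). The group difference rested mainly on stem CT26_102, at 2.88 times against 1.29 times in CT26_CTL. It was 0.36 on the log2(FPKM + 1) scale when either CT26_102 library was left out and 1.47 when either CT26_CTL library was.

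Gas5 (ENSMUSG00000053332, chromosome 1, 161034422 to 161038539, plus strand, processed transcript) varied less, at 35.2, 51.0, 43.2 and 48.9 FPKM. Again CT26_102 was lowest and CT26_102_R highest. The group difference was 0.35 ± 0.14 (SE, limma adjusted p = 0.143) and the stem difference -0.11 ± 0.14 (adjusted p = 0.577), so neither passed. The stem difference was -0.29 without suffix R and 0.06 with it. Gas5 overlaps the coding gene Zbtb37 on the other strand at its 5' end. Zbtb37 was at 1.18, 0.70, 0.47 and 0.42 FPKM, far below Gas5.

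**Figure D2:**
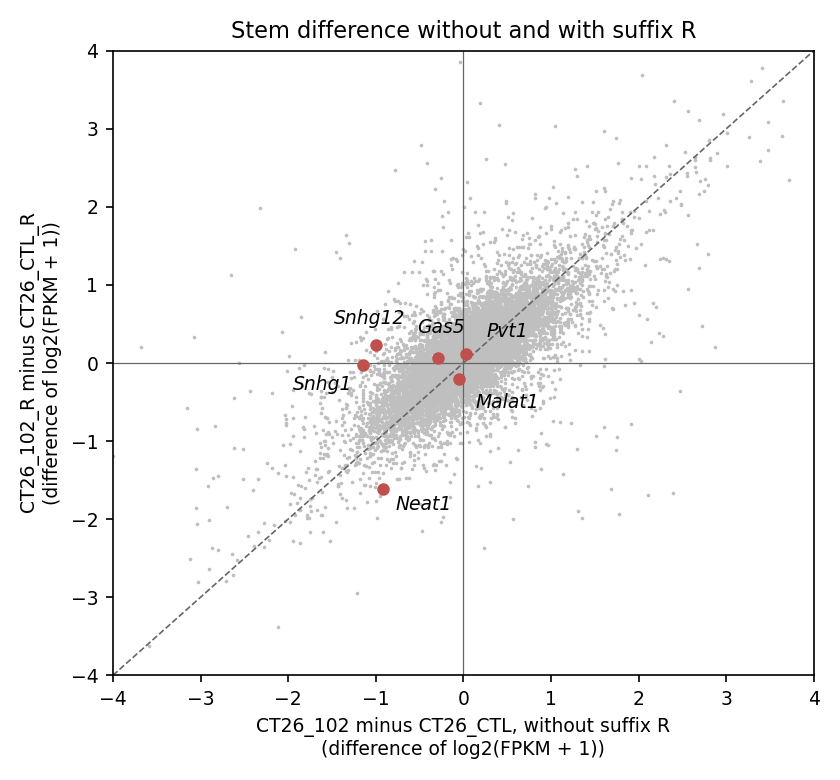
Difference of log2(FPKM + 1) between stems (CT26_102 minus CT26_CTL) without suffix R on the x axis and with it on the y axis, 1 grey point per tested gene, the 6 tested long noncoding RNAs in red, and a dashed line where both are equal. Snhg12 at -1.0 and 0.23 and Snhg1 at -1.14 and -0.02 lie above the line, Neat1 at -0.92 and -1.61 below it, and 11 genes fall outside the axes.

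The change of the stem difference from libraries without to libraries with suffix R was 1.23 for Snhg12, 1.11 for Snhg1, 0.35 for Gas5, 0.09 for Pvt1, -0.16 for Malat1 and -0.70 for Neat1 on the log2(FPKM + 1) scale. Over all tested genes the median size of this change was 0.212. A larger change in either direction was found in 1.97% of tested genes for Snhg12, 2.61% for Snhg1 and 8.1% for Neat1, against 29.3% for Gas5, 61.8% for Malat1 and 76% for Pvt1. No test of this change was possible with 1 library in each combination of stem and suffix. In the two-factor fit this change is the only residual, so it also enters the SE of each gene. That SE was 0.30 for Snhg12 and 0.27 for Snhg1, against 0.14 for Pvt1. The differences for Snhg12 and Gas5 had opposite signs without and with R, as did 22.6% of all tested genes.

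Of 21 snoRNA host genes on a wider list that includes Gas5, Snhg1 and Snhg12, 13 were tested. Between groups 3 rose, 1 fell and 9 did not pass, with a median of 0.06 against 0.00 over all tested genes. Of all tested genes 7.57% rose and 5.32% fell. Besides Snhg12, Snhg15 rose from 10.3 to 28.5 and from 14.2 to 41.0 FPKM (log2 difference 1.43 ± 0.12 SE, limma adjusted p = 0.0174), nearly alike in both stems, and Epb41l4aos from 26.4 to 47.3 and from 54.2 to 82.1 FPKM (adjusted p = 0.0362). Snhg3 fell from 6.80 to 3.24 and from 4.88 to 2.95 FPKM (adjusted p = 0.0452). The hosts thus held genes called in either direction with suffix R.

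Between stems most hosts were lower in CT26_102, few of them past the test. Without suffix R the stem difference was negative for 12 of 13 hosts, and with it for 10, while 52.2% of all tested genes had a positive one without R. The list median was -0.43 without suffix R and -0.14 with it, against 0.03 and 0.09 over all tested genes. Over all tested genes 9.44% passed as lower in CT26_102 and 12.5% as higher. Of the 13, 2 passed as lower in CT26_102, 0 as higher and 11 did not pass. Those 2 were Snhg8, at 28.9, 32.8, 72.9 and 51.4 FPKM (adjusted p = 0.0295), and Epb41l4aos (adjusted p = 0.0156). Zfas1, the host of snoRNAs near the gene Znfx1, showed the pattern of Snhg1 at 25.0, 44.3, 41.7 and 47.0 FPKM, with a stem difference of -0.71 without suffix R and -0.08 with it, and did not pass in either comparison.

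**Figure D3:**
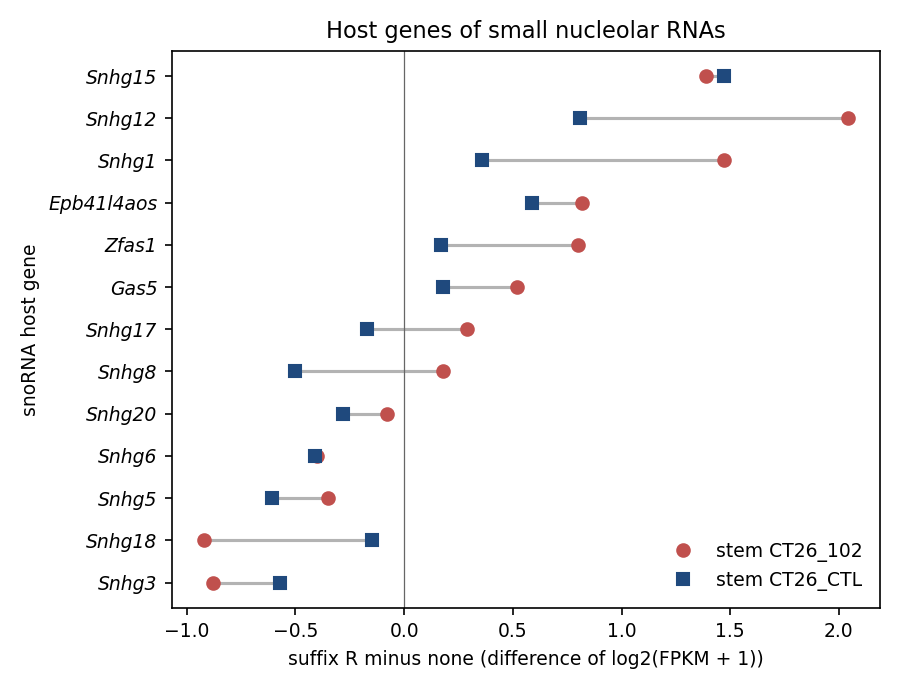
Difference of log2(FPKM + 1) between the library with suffix R and the one without, in stem CT26_102 (circles) and stem CT26_CTL (squares), for the 13 tested host genes of snoRNAs, ordered by the mean of both. Snhg12 at 2.04 and 0.81 and Snhg1 at 1.47 and 0.36 show wide gaps between stems, whereas Snhg15 is at 1.39 and 1.47.

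Most of the snoRNA records above 1 FPKM within Gas5 and Snhg1 had lower values with suffix R, while the hosts, which did not pass, had higher ones. Within the bodies of Gas5, Snhg1 and Snhg12 the table lists 10, 8 and 5 snoRNA records of 60 to 137 bases, of which 4, 2 and 1 reached an FPKM of 1 in at least 2 libraries. Records this short are poorly captured by libraries for messenger RNA, and how reads were shared between a snoRNA and its host is not given in the sources used here. In Gas5, 3 of 4 such records were lower with suffix R in both stems, and in Snhg1 2 of 2 were, whereas the single one in Snhg12 was higher. The sequences of the highest record in each of Gas5 and Snhg1, and of Snord80, are shown from the GENCODE M21 transcripts, with the first C box (TGATGA) and the last D box (CTGA), the motifs bound by the core proteins of box C/D snoRNAs, in capitals.
Gm22357: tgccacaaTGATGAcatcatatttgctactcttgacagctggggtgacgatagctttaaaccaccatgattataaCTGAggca
Snord80: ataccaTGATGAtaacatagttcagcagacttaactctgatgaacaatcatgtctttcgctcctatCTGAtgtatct
Gm24452: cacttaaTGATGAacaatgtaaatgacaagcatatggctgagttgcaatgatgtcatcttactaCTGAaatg
All 3 hold both boxes, the D box within 10 bases of the 3' end.

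Gm22357 (ENSMUSG00000064816, chromosome 1, 161036057 to 161036139) was at 93.7, 59.3, 58.1 and 40.9 FPKM. It fell by 0.57 on the log2(FPKM + 1) scale with suffix R (SE 0.12, limma adjusted p = 0.0437) and was 0.60 higher in CT26_102 than in CT26_CTL (adjusted p = 0.0283), while Gas5 itself did not pass in either comparison. Snord80 (ENSMUSG00000105780, chromosome 1, 161037604 to 161037680) fell from 21.1 to 12.2 and from 15.0 to 9.47 FPKM (adjusted p = 0.0409). Another record named Snord80, at 161037601 to 161037681, encloses it and was at 0.000158, 0.000197, 0.000667 and 0.00108 FPKM. How reads were divided between both Snord80 records is not given, so the values of either depend on that division. In Snhg1, Gm24452 (ENSMUSG00000065281, chromosome 19, 8724531 to 8724602) fell from 27.8 to 14.7 and from 18.6 to 8.05 FPKM (log2 difference -1.0 ± 0.14 SE, limma adjusted p = 0.0252). Relative to the Snhg1 host, Gm24452 was at 1.68, 0.307, 0.492 and 0.166 times its level per length. The single record above 1 FPKM in Snhg12, Snora44, was at 1.92, 4.29, 1.30 and 1.46 FPKM and did not pass (adjusted p = 0.19). Apart from Snord80 and Snora44, these records were named after their values were seen.

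The same direction was common among snoRNA records of the whole table. Of 99 tested snoRNA genes, 3 rose, 18 fell and 78 did not pass between groups, with a median of -0.37 against 0.00 over all tested genes. Between stems 20 were higher in CT26_102, 5 lower and 74 did not pass, with a median of 0.30 against 0.05. Among all tested genes 7.57% rose and 5.32% fell with suffix R, and 12.5% were higher and 9.44% lower in CT26_102. The nested records that passed had the direction of most snoRNA records called.

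**Figure D4:**
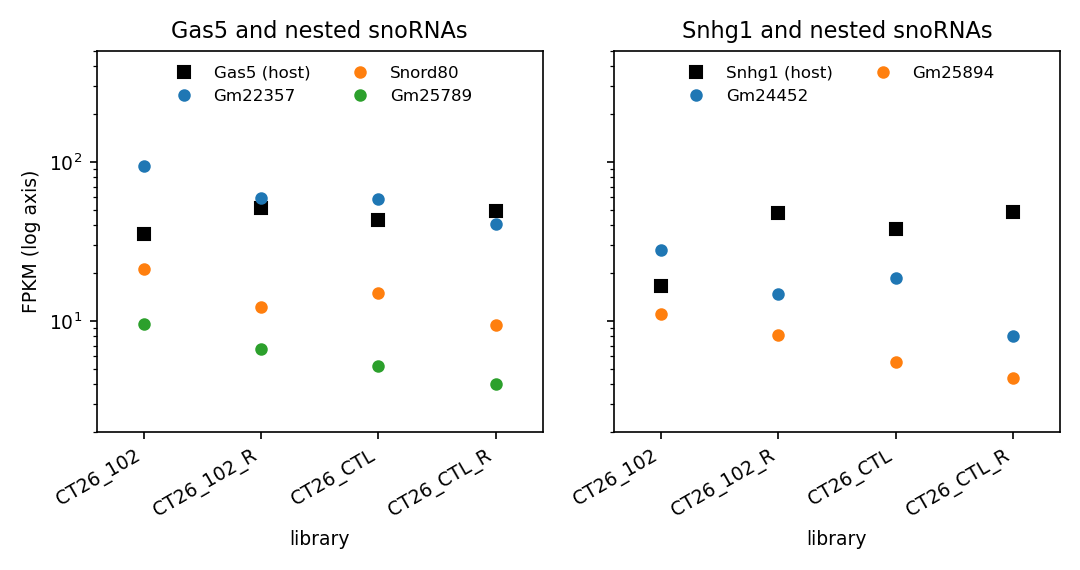
FPKM (log axis) in each of the 4 libraries of Gas5 (left) and Snhg1 (right) as black squares, with selected snoRNA records nested in each gene as coloured circles. Mir5117, nested in Gas5, is not drawn. Gm22357 goes from 93.7 to 59.3 and from 58.1 to 40.9 FPKM with suffix R while Gas5 goes from 35.2 to 51.0 and from 43.2 to 48.9 FPKM.

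Nonsense-mediated decay removes many spliced host RNAs, so the RNA levels of its factors were listed beside them. Of 21 factors, 1 rose, 2 fell and 18 did not pass between groups (median 0.07), and 3 were higher and 1 lower in CT26_102 (median 0.19). Over all tested genes 7.57% rose and 5.32% fell between groups (median 0.00). Between stems 12.5% of all tested genes were higher and 9.44% lower in CT26_102 (median 0.05). The kinase Smg1, which activates the decay helicase Upf1, fell from 7.83 to 4.79 and from 5.14 to 2.84 FPKM (limma adjusted p = 0.0457), and Dhx34 fell from 9.57 to 5.53 and from 7.99 to 4.30 FPKM (adjusted p = 0.0375). Rbm8a, a subunit of the exon junction complex, rose from 30.7 to 44.8 and from 44.3 to 72.3 FPKM (adjusted p = 0.0421). Nbas at 5.79, 5.84, 2.34 and 2.63 FPKM and the decapping factor Dcp1a at 5.03, 5.24, 2.67 and 2.57 FPKM were higher in CT26_102.

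Pvt1 was the member whose stems differed least. Pvt1 (ENSMUSG00000097039, chromosome 15, 62037986 to 62378096, plus strand, a lincRNA spanning 340.1 kb) was at 1.35, 4.33, 1.31 and 3.91 FPKM. Both libraries with suffix R were above both without it, by 3.22 times in CT26_102 and 3.0 times in CT26_CTL, and the stems lay side by side. The group difference was 1.14 ± 0.14 (SE, limma adjusted p = 0.0225) on the log2(FPKM + 1) scale, which understates the fold of an RNA at this level. With the stem left out of the fit the adjusted p was 0.40. The stem difference was 0.07 ± 0.14 (SE, limma adjusted p = 0.735) and turned to -0.12 with the trend of gene length removed. A higher group difference was found in 2.18% of tested genes.

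Myc, the neighbour of Pvt1, differed between stems where Pvt1 did not pass. It was at 29.9, 42.2, 49.8 and 64.6 FPKM, lower in CT26_102 by a log2 difference of -0.66 ± 0.12 (SE, limma adjusted p = 0.0244), and its group difference of 0.43 did not pass (adjusted p = 0.0725). Of 20 genes on a list of Myc and its targets, 2 rose, 2 fell and 16 did not pass between groups, and 2 were higher and 4 lower in CT26_102. The shares over all tested genes were 7.57% and 5.32% between groups, and 12.5% and 9.44% between stems. Odc1, which encodes the polyamine enzyme ornithine decarboxylase, was at 133, 222, 340 and 448 FPKM and the nucleolar protein gene Nolc1 at 36.8, 44.0, 76.4 and 71.6 FPKM, both lower in CT26_102, while Cad at 16.7, 14.2, 10.7 and 7.55 FPKM was higher. With suffix R the Myc antagonist Mxd1 rose from 1.09 to 3.14 and from 1.51 to 3.28 FPKM, Npm1 fell from 576 to 366 and from 543 to 337, and Ldha from 709 to 412 and from 844 to 590 FPKM.

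Targets of p53 were listed beside Neat1 and Pvt1, and whether p53 acted on either RNA here was not tested. Of 29 tested genes on a list of 32, 21 rose, 0 fell and 8 did not pass with suffix R, with a median of 1.22. Over all tested genes 7.57% rose and 5.32% fell, with a median of 0.00. Mdm2, the ubiquitin ligase of p53, had a log2 difference of 3.11, Btg2 of 3.32 and Trp53inp1 of 2.63, against 1.14 for Pvt1 and 0.99 for Neat1. Between stems 11 of the 29 were higher in CT26_102 and 1 lower (median 0.51). Of all tested genes 12.5% were higher and 9.44% lower in CT26_102 (median 0.05). Ccng1, which encodes cyclin G1, was at 135, 462, 39.3 and 170 FPKM, and Ptprv, annotated as a processed transcript, at 3.10, 12.7, 0.188 and 2.21 FPKM. The 1 p53 target called lower in CT26_102, as Neat1 was, was Plk2, which encodes a polo-like kinase. It was at 33.6, 158, 106 and 366 FPKM (log2 difference -1.42, limma adjusted p = 0.00833). Cdkn1a, Bax and Bbc3 did not pass between stems, with differences of -0.05, -0.19 and -0.50. Plk2, Bax and Bbc3 were picked after their values were seen. Trp53cor1, the p53-associated RNA known as lincRNA-p21, was at 1.27, 1.54, 0.814 and 0.651 FPKM and did not pass (limma adjusted p = 0.965 between groups).

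The imprinted members were listed at 0 or near it. Kcnq1ot1 (ENSMUSG00000101609, chromosome 7, 143203458 to 143296549, minus strand), a single annotated transcript of 93092 bases, was at 0.0457, 0.0283, 0.0755 and 0.0506 FPKM. Because it is so long, these values correspond to roughly 64 to 187 reads over 93092 bases at the estimated depths. No background rate was estimated, so whether these reads come from the RNA itself was not tested. The level of Kcnq1ot1 in CT26_102 was 0.604 times that in CT26_CTL without suffix R and 0.559 times with it. With suffix R it was 0.619 and 0.67 times the level without, the one member above 0 in all libraries that was lower with R in both stems. It was under the level required for testing, and no p is given. Kcnq1ot1 runs antisense through Kcnq1, and whether reads were counted by strand is not given, so reads of the pair cannot be told apart. Kcnq1 was listed at 0, 0.0359, 0 and 0.0452 FPKM.

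H19 (ENSMUSG00000000031, chromosome 7, 142575529 to 142578143, minus strand) had a single value above 0, 0.0308 FPKM in CT26_CTL. In that library 1 read gives an estimated 0.03767 FPKM in a transcript of 1 kb and 0.01883 FPKM in one of 2 kb, and annotated H19 transcripts are 761 to 2286 bases long, so the value rests on very few reads. Its coding neighbour Igf2 was listed at 0 in every library. Meg3 (ENSMUSG00000021268, chromosome 12, 109541001 to 109571726, plus strand), listed at 0 in all 4, shares its domain with Dlk1, also at 0, Rian at 0.0364 FPKM or less and Mirg between 0.0456 and 0.137 FPKM. No difference in H19 or Meg3 was detectable at this depth. Within the Kcnq1ot1 domain, Cdkn1c, which encodes the cell cycle inhibitor p57, was at 0.0174 to 0.11 FPKM and Phlda2 at 0.0137 to 0.219 FPKM.

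Of 20 genes on a list of these 3 imprinted domains, 6 were tested, 1 rose and 0 fell between groups, and 0 were higher and 1 lower in CT26_102. Among all tested genes 7.57% rose and 5.32% fell, and 12.5% were higher and 9.44% lower in CT26_102. Slc22a18, a transporter gene, rose from 3.95 to 14.5 and from 2.98 to 6.57 FPKM (limma adjusted p = 0.0319), and Tspan32 was at 1.61, 1.90, 4.73 and 6.20 FPKM (adjusted p = 0.0118 between stems). Of 18 imprinted genes outside these domains 3 were tested. Igf2r, the receptor that clears IGF2, was higher in CT26_102 at 7.79 and 8.15 against 0.713 and 0.711 FPKM (adjusted p = 0.00366), while Airn, its antisense RNA, was at 0.0383 FPKM in CT26_102 and listed at 0 elsewhere.

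Annotated long noncoding RNAs, the 6 tested members among them, were called higher more often than lower with suffix R. All tested genes were too in this fit, by a narrower margin. Of 474 tested genes of the annotated long noncoding types, 74 rose, 16 fell and 384 did not pass. Over all tested genes 7.57% rose and 5.32% fell, a split that reversed with upper-quartile rescaling. Calls among the 474 were not counted under that rescaling. The median of the 474 was 0.13, against 0.00 over all tested genes and 0.95 over the 6 tested members. A list of 34 other known noncoding RNAs had 12 tested members, of which 2 rose and 1 fell between groups, and 1 was higher and 3 lower in CT26_102. Between stems 12.5% of all tested genes were higher in CT26_102 and 9.44% lower. Mir155hg, the host of the microRNA miR-155, fell from 1.75 to a listed 0 and from 2.91 to 0.429 FPKM (limma adjusted p = 0.0195). Lncenc1 at 3.24, 2.44, 14.5 and 10.4 FPKM (adjusted p = 0.00529) was lower in CT26_102. So was Rn7sk, the short RNA that restrains the elongation factor P-TEFb, at 0.732, 1.37, 12.1 and 6.10 FPKM (adjusted p = 0.0167). How evenly libraries for messenger RNA captured Rn7sk was not tested. Tug1 was nearly level at 8.37, 8.48, 8.54 and 8.94 FPKM.

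The tested genes closest to each member were found by the distance between centred log2(FPKM + 1) profiles over the 4 libraries, a description that rests on 4 points. The closest to Snhg12 was Nudt18 (distance 0.099) at 3.0, 14.5, 7.11 and 13.5 FPKM, followed by Klra2 (0.294). The closest to Snhg1 were Frrs1 (0.10) at 6.75, 18.8, 14.7 and 20.0 FPKM and Pofut2 (0.112), and to Pvt1 Rnf151 (0.044) at 0.231, 1.90, 0.206 and 1.59 FPKM and Nol3 (0.091). Gas5 had Mief2 (0.028) and Mapre1 (0.029) nearest, and Malat1 had Gm6483 (0.01) and Svbp (0.036). Neat1 was farther from any other gene, with AC134528.2 (0.248) at 0.588, 1.13, 1.69 and 4.97 FPKM and Bcl2l15 (0.268) nearest.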

How the data were processed

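Per the labels' protocols, an RNeasy kit gave the RNA and a SMARTer kit the mRNA-seq libraries. FPKM per gene and library was computed by the authors and deposited. The submitters' processing notes name GRCm38 and mm10. Aligner, quantifier and strand setting: not given in the sources used here. Groups come from the labels and stems from the titles. The members, gene lists and tests were chosen with earlier results of these data known. Genes at 1 FPKM or more in 2 or more libraries (11955) were fitted as log2(FPKM + 1) in R 4.3.3 with limma 3.58.1 (variance trend), with stem and group as terms, 1 residual degree of freedom and 4.01 prior ones. P-values are two-sided and adjusted by Benjamini-Hochberg over all tested genes. The fit was tested on simulated data. No label says that libraries came from separate cultures. The 1 residual degree of freedom of the two-factor fit is each gene's change of the stem difference with suffix R. Its p-values thus set differences against that departure from additivity, moderated over genes, and not against a spread among replicates. Whether that departure is biological or technical is not known. An exact permutation test of 2 against 2 cannot go below 0.333 and was not run. Stem paired the libraries, as their titles give it. Depth was estimated from the step that 1 read makes in single-transcript genes of at least 1000 bases, where 37.0% to 41.3% of values below 5.5 reads were whole within 0.02 reads, so depths are approximate. Positions and lengths are from GENCODE M21 (GRCm38), which held 99.67% of identifiers, and promoters from RefSeq (GRCm38.p6). Named genes were all members, up to 3 called genes with the largest differences per list and comparison, fixed neighbours, and the 2 nearest profiles; a few others are said to be chosen after seeing values. Alternatives were another pseudocount, no filter, the tested division alone, a pair of rescalings, length correction, no variance trend and each library left out.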

Additional observations from a re-analysis of the deposited data

Results flagged for a closer look

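In 2 members the libraries of stem CT26_102 lay on opposite sides of those of CT26_CTL without and with suffix R. For Snhg12 the stem difference went from -1.0 to 0.23 on the log2(FPKM + 1) scale, a change of 1.23. For Gas5 it went from -0.29 to 0.06, a change of 0.35. With 1 library in each combination, neither change was tested, and opposite signs were found in 22.6% of all tested genes. With median-of-ratios rescaling the count of members with opposite signs was 1.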

How the results depend on the processing

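Between stems the count of called members was 1, and it was 0 without the expression filter and 0 without the replicate block (the tested division alone). It was 1 under the other 5 alternatives. Between groups the count was 3, and it was 0 without the filter, 0 without the replicate block, 1 without the variance trend (Pvt1), and between 2 and 4 under the other alternatives. With a library left out and the tested division alone, counts were 0 to 0 in both comparisons, where the lone library of an arm is assumed to vary like the others and 0 to 16 genes of 11955 passed; 0 to 3 members between stems and 2 to 4 between groups had an unadjusted p under 0.05. The number of members with opposite stem differences, 2, was 1 with median-of-ratios rescaling. The stem difference of Pvt1 turned to -0.12 with the length trend removed. Leaving out 1 library gives the difference of the remaining matched pair, without a test, such as -1.61 to -0.92 for Neat1 between stems, and 0.64 to 1.34 for Neat1, 0.81 to 2.04 for Snhg12 and 1.09 to 1.18 for Pvt1 between groups. The causes were not tested. Without the filter 0 of 27670 genes passed in limma in either comparison, with 5802 between stems and 4937 between groups at an unadjusted p under 0.05, among them 1 and 5 members.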
